A study of Rattus norvegicus with 145 samples.

Results

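In the cerebellum of Q130 knock-in rats, 53 of the 32883 genes measured had higher mean levels than in wild-type rats at both 19 and 24 months of age without being mainly forebrain genes. They were chosen from the measured values, by the ratio of the knock-in to the wild-type mean of CPM values (counts with each library scaled to a total of 1000000). That ratio was at least 1.22 at both ages, with a wild-type mean of at least 2 CPM at both. In addition, the wild-type cerebellar mean at 19 months was at least 0.5 times that of both striatum and cortex. Of the genes, 12739 met the level and 110 of these also met the ratio at both ages. The forebrain criterion set aside 53 of those, and 4 were left out by name, of which 1 would have met every criterion. The knock-in against wild-type values in cerebellum, and the 19-month wild-type levels in all regions, are therefore given below as a description with no test.

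Bulk RNA sequencing of messenger RNA covered Long Evans rats that were heterozygous for the Q130 knock-in (Q130 KI Het, KI below) or wild type (WT), with no other allele or treatment in the labels. Cerebellum and cortex were sampled in 10 KI and 10 WT animals at 19 months and in 7 KI and 4 WT animals at 24 months, and cortex also in 10 and 10 at 10 months, with both sexes in every one of these groups. Striatum was sampled in the same way at 10, 19 and 24 months and in 3 males per genotype at 2 and at 6 months, the latter carried over by the submitters from another series. In all, 63 animals gave 145 libraries. All 31 animals that gave a cerebellum also gave cortex and striatum.

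In Huntington's disease a CAG repeat in huntingtin is lengthened, and a knock-in carries the longer repeat in the animal's own copy of that gene. The projection neurons of the striatum are the cells most affected in the disease, followed by those of the cortex. The cerebellum is built mainly of granule neurons, with Purkinje cells as its output, and is affected less and later in adult-onset disease. In bulk tissue, fewer cells of a type and less RNA per cell cannot be told apart.

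The files give Ensembl identifiers without symbols, and 0 of the 32883 identifiers matched the gene table used here, so the function of the members, the huntingtin gene and cell type markers are not analysed here. The genes are called riser 1 to riser 53, in order of the smaller of their ratios at the 2 ages. The identifiers printed are those of riser 1, ENSRNOG00000005975, and of riser 44, ENSRNOG00000049985, the member with the highest WT cerebellar CPM. Whether members overlap another gene, or share reads with a near copy, is also not known here. Libraries are named by sex and label number (F1, M1) within a genotype, region and age. Of the 51 animals sampled in more than 1 region, 8 carried the same label in each, so a label does not name 1 animal across regions.

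Total counts ran from 25.6 to 34.4 (in units of 1000000) in the 31 cerebellar libraries, from 28.9 to 47.3 in the 51 cortical ones and from 26.7 to 34.5 in the 63 striatal ones. In 12 libraries the correlation with others of the same region and age was outlying, 2 of them in cerebellum, 3 in cortex and 7 in striatum. The cerebellar ones were KI F5 and WT M2 at 19 months. Without the 12 libraries the rule gave 52 genes, of which 46 were among the 53.

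Most of the cerebellar differences were below 1.5-fold. The median KI/WT ratio over the 53 members was 1.37 at 19 months, with a range from 1.22 to 3.78, and 1.39 at 24 months, with a range from 1.22 to 10.8. At both ages 5 members reached 1.5-fold and 1 reached 2-fold. The ratio was larger at 24 months in 34 members. WT cerebellar means at 19 months ran from 2.05 to 319 CPM, with 31 members under 10 CPM and 3 above 100. Per length, the median WT cerebellar level was 7.61 TPM (counts per transcript length, scaled to the same total), against 25.1 TPM over all 12739 genes that met the level.

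**Figure D1:**
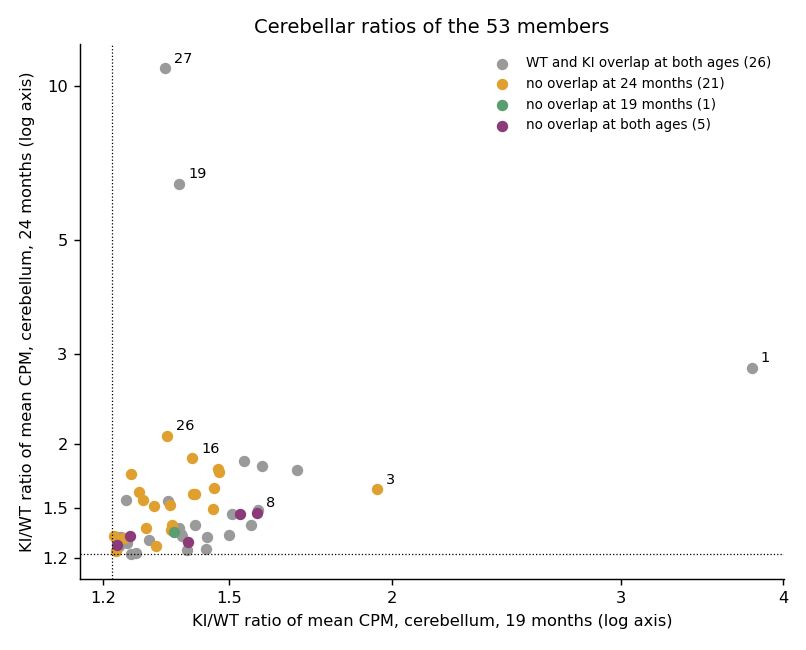
Ratio of the KI to the WT mean CPM in cerebellum at 19 months (x) and 24 months (y), both on log axes, with 1 point per member and dotted lines at the threshold of 1.22. Colours give the overlap of KI and WT libraries, and the numbers are risers. Most points lie under 2-fold at both ages, while risers 19 and 27 stand apart at 24 months and riser 1 at both.

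The spread between animals divided the members into groups. At 19 months the genotypes were separated, with all KI libraries above all WT libraries, in 6 members, where 0.163% of the 15341 genes tested in that region did so. At 24 months this held for 26 members, against 2.89% of 15538 genes, and with 4 WT animals at that age a separation asks less than at 19 months. The members were chosen on this contrast, so nothing is read from these counts against those shares. Risers 8, 11, 35, 40 and 48 were separated at both ages, riser 24 at 19 months only, and 26 members at neither. Without the outlying libraries 11 members were separated at 19 months, but leaving out libraries can only ease a separation, for any gene. The share of all genes under that setting is not given here, so nothing is read from the rise.

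Riser 8 had the largest ratios of the members separated at both ages. Its level at 19 months was 4.12, 5.11 and 6.78 CPM (lowest, median and highest of 10 WT) and 7.05, 8.59 and 9.55 CPM in 10 KI. At 24 months the 4 WT libraries had 6.11, 6.09, 7.72 and 6.24 CPM, and the 7 KI libraries 9.23, 9.51 and 10.4 CPM (lowest, median and highest). Every KI library was above every WT library, and the ratios were 1.57 and 1.47. At 19 months the WT mean was 5.33 ± 0.96 CPM and the KI mean 8.4 ± 0.825 CPM (SD, n = 10 each).

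Riser 11 was nearly restricted to the cerebellum. At 19 months it lay at 7.78, 9.38 and 10.7 CPM in WT and 11.2, 13.9 and 16.9 CPM in KI, again given as lowest, median and highest. At 24 months the WT libraries had 8, 9.36, 8.84 and 8.46 CPM, and the KI libraries 10.1, 12.2 and 15.5 CPM. The genotypes did not overlap at either age, and the ratios were 1.53 and 1.46. In the forebrain its WT means at 19 months were 0.0366 CPM in striatum and 0.0673 CPM in cortex, and no forebrain library of any age or genotype passed 0.392 CPM.

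Riser 35 had a narrow WT group at 24 months. Its levels were 42.7, 49.4 and 60 CPM in WT and 62.6, 70.8 and 75.5 CPM in KI animals at 19 months. At 24 months the WT libraries had 53.6, 53.8, 54.2 and 55.6 CPM, and the KI libraries 62.5, 70 and 79.7 CPM. The genotypes stayed apart at both ages, with ratios of 1.40 and 1.29.

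Risers 40 and 48 had smaller ratios with a spread small enough to separate the genotypes. Riser 40 lay at 79.2, 87.4 and 94.5 CPM in WT and 100, 109 and 120 CPM in KI animals at 19 months. At 24 months it lay at 93.6, 95.3, 96.2 and 86.3 CPM in the WT libraries and at 115, 122 and 136 CPM in KI. Its ratios were 1.26 and 1.33, and the level was higher in every KI animal.

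Riser 48 had 52.6, 60.4 and 63.5 CPM in WT and 64.6, 72.4 and 81.4 CPM in KI animals at 19 months. At 24 months its WT libraries had 54.2, 56.3, 58 and 53.6 CPM and its KI libraries 65.8, 70.7 and 75.2 CPM. With a ratio of 1.23 at 19 months it lay close to the threshold, and leaving out any 1 of 3 cerebellar libraries took it out of the set although its groups stayed apart.

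Riser 24 was separated at 19 months, with 15, 17.1 and 19.5 CPM in WT and 19.9, 22.1 and 26.7 CPM in KI. At 24 months WT F1, F2, M1 and M2 had 19.1, 17.9, 19.7 and 13.8 CPM and the KI libraries 19.3, 22 and 30.2 CPM. The groups overlapped there through the lowest KI library, which lay below the highest WT library.

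**Figure D2:**
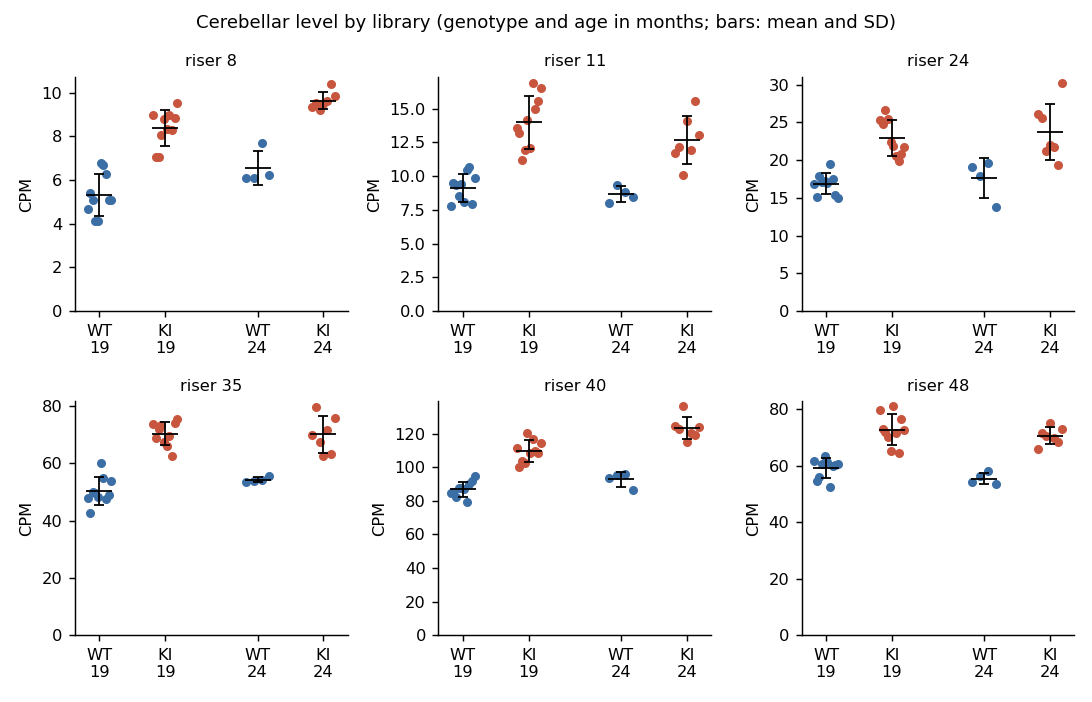
CPM (y, from 0) in each cerebellar library for the 6 members whose genotypes did not overlap at 19 months, by genotype and age in months, with WT in blue, KI in red, and bars for the mean and SD. In risers 8, 11, 35, 40 and 48 every KI point is above every WT point at both ages, and in riser 24 at 19 months.

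The most abundant members had ratios within the range of the others. Riser 44, ENSRNOG00000049985, had 292, 321 and 341 CPM in WT and 338, 401 and 442 CPM in KI animals at 19 months. At 24 months the WT libraries had 299, 323, 294 and 292 CPM and the KI libraries 377, 394 and 430 CPM. A single step of overlap at 19 months, between 338 and 341 CPM, kept it from being separated at both ages. The WT mean of riser 44 was 319 ± 15.2 CPM at 19 months and the KI mean 398 ± 35 CPM (SD, n = 10 each), a ratio of 1.25, and the ratio at 24 months was 1.32. Riser 34 was the other member above 100 CPM with a steady ratio, 1.29 and 1.38, with 104 to 134 CPM in WT and 130 to 170 CPM in KI animals at 19 months.

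Of the 3 members above 100 CPM, riser 16 had the largest ratio at 24 months. At 19 months it lay at 93.8, 117 and 144 CPM in WT and at 90.5, 170 and 209 CPM in KI, where KI M1 was below every WT library. At 24 months WT had 111, 130, 123 and 108 CPM and KI 189, 230 and 260 CPM, with no overlap. Its ratio was 1.41 at 19 months and 1.88 at 24 months. It was also higher in cerebellum than in both forebrain regions, at 76 TPM against 17 TPM in striatum and 7.79 TPM in cortex of WT at 19 months.

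The rule, which used the 19-month WT levels, asked only that a member not be mainly a forebrain gene. Most members were not highest in cerebellum. In WT at 19 months the cerebellum had the highest mean of the 3 regions in 18 members, or 34%, against 54.4% of the 12739 genes that met the level. Those at 4 times the higher forebrain mean or more were 6, or 11.3%, against 2.68% of all. These were risers 7, 11, 12, 26, 29 and 45, the same 6 members that were under 1 CPM in both forebrain regions.

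Among these, riser 29 had 2.71, 3.39 and 4.69 CPM in WT and 4.22, 5.08 and 6.15 CPM in KI animals at 19 months, against WT means of 0.147 CPM in striatum and 0.116 CPM in cortex. Riser 12 had 1.34, 2.2 and 2.71 CPM in WT and 2.64, 2.88 and 4.42 CPM in KI, against 0.142 and 0.18 CPM in WT striatum and cortex. In both genes the KI and WT ranges of the cerebellum overlapped at 19 months, and the forebrain levels were far below either. Riser 26 had the largest 24-month ratio of the 6, with WT at 1.63, 2.89, 2.52 and 2.56 CPM and KI at 4.35, 4.91 and 5.88 CPM, a ratio of 2.08, while at 19 months its groups overlapped at a ratio of 1.34.

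Riser 1, ENSRNOG00000005975, had the largest smaller ratio, 2.82, and was not graded between animals but either present or near 0. Over all 145 libraries no value lay between 0.552 and 21.9 CPM. In cerebellum it was present in 1 of 10 WT animals (M5, 35.3 CPM) and 2 of 10 KI animals (F2, 39.2 CPM, and F5, 97.4 CPM) at 19 months. At 24 months it was present in 1 of 4 WT animals (F1, 37.7 CPM) and 5 of 7 KI animals, at 33.1 to 42.2 CPM. Its ratios count animals in which the gene was present, so they turn on single animals: without WT M5 the ratio at 19 months was 136, without KI F5 it was 1.217, below the threshold, and without WT F1 the ratio at 24 months was 122.

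The state of riser 1 was shared by the regions of an animal. All 31 animals sampled in 3 regions, and all 51 sampled in more than 1, had the gene above 10 CPM in each of their libraries or in none. It was present in 28 of the 63 animals. At 10 months the order of the genotypes was the other way round, with 8 of 10 WT and 6 of 10 KI animals positive in both striatum and cortex. In striatum at 2 months 1 of 3 animals of each genotype had it, and at 6 months 1 of 3 WT and 2 of 3 KI animals.

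Riser 43 behaved in a similar way at a lower level, with the libraries near 0 or above. No library lay between 0.245 and 2.28 CPM. It was above 2 CPM in 55 of 63 animals, and again all 51 animals with several regions were in 1 state throughout. In cerebellum it was above 2 CPM in 7 of 10 WT and 9 of 10 KI animals at 19 months and in 3 of 4 and 6 of 7 at 24 months. Among positive animals the cerebellar level lay either at 4.39 to 6.02 CPM or at 9.59 to 11.5 CPM. Of the animals in the upper range, WT F3 at 19 months had 11.2 CPM in cerebellum, 4.96 in cortex and 7.82 in striatum, and KI M3 had 11.5 and 6.97 but 3.05 in a striatal library that was outlying.

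**Figure D3:**
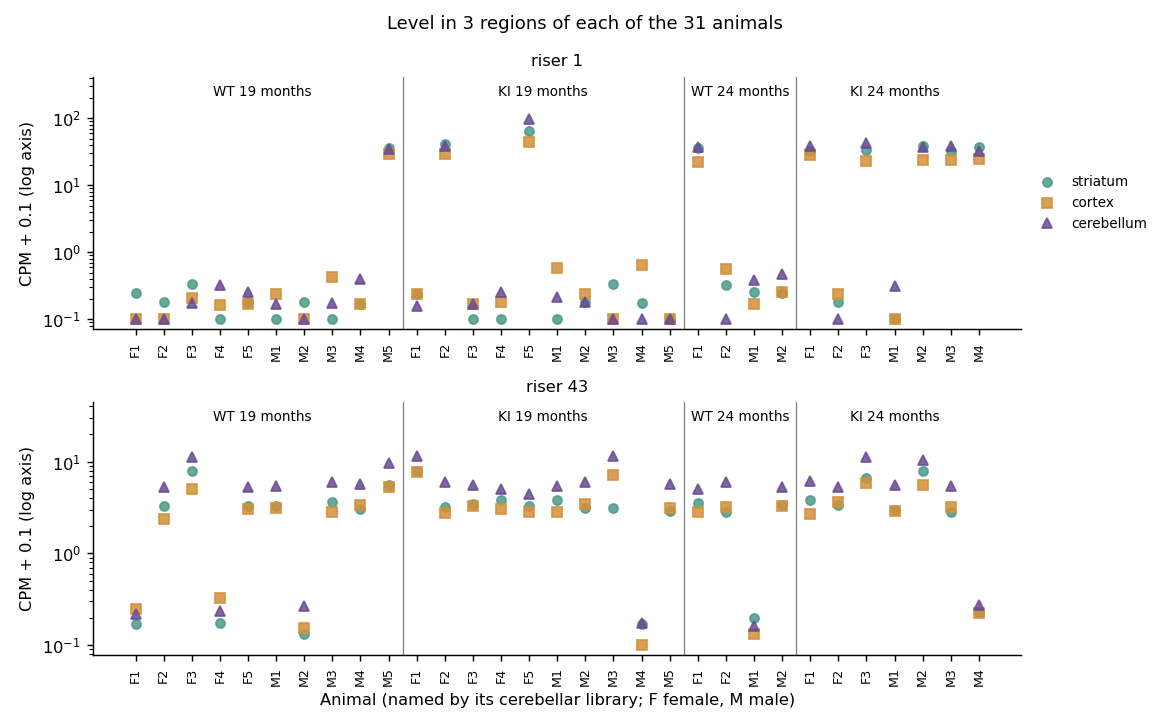
CPM plus 0.1 (y, log axis) of risers 1 and 43 in the striatum, cortex and cerebellum of each of the 31 animals that gave all 3 regions (x), by genotype and age in months. In each animal the 3 symbols lie together, near the bottom or well above it, in both genes.

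Other ratios rested on single libraries. Riser 19 had 2.91, 4.19, 2.8 and 3.25 CPM in the WT libraries of 24 months and a median of 3.07 CPM in KI, with 131 CPM in KI F1. Riser 27 had 1.8, 2.76, 3.28 and 6.01 CPM in WT and a median of 3.29 CPM in KI, with 243 CPM in the same library. Without KI F1 the 24-month ratio fell from 6.45 to 0.869 for riser 19 and from 10.8 to 0.93 for riser 27. The cortex and striatum of that animal had 3.2 and 1.57 CPM of riser 19 and 3.92 and 1.82 CPM of riser 27, within the range of other animals.

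Riser 28 turned on single libraries at both ages. It had 1.29, 2.1, 3.57 and 1.92 CPM in WT at 24 months, and in KI a median of 1.54 CPM with 9.98 CPM in F1. Without KI F1 its ratio at 24 months was 0.812, and without the outlying KI F5, at 8.8 CPM, its ratio at 19 months was 1.14. Risers 1, 19, 27 and 28 were the 4 members with a relative effective length (the ratio of counts to TPM, scaled to all genes) under 0.2, and the median over the members was 0.901 against 1.02 over the genes that met the level.

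Risers 6 and 41 varied from library to library within every group. Riser 6 ran from 1.32 to 24 CPM in WT and from 7.18 to 30.7 CPM in KI animals at 19 months, and from 7.02 to 13.4 and from 1.33 to 22.6 CPM at 24 months. Riser 41 ran from 0.677 to 25.9 and from 1.03 to 26.4 CPM at 19 months, and from 6.51 to 13 and from 0.871 to 32.6 CPM at 24 months. The WT and KI ranges overlapped widely in both genes, and without KI M4 the 24-month ratio of riser 41 was 0.902. Unlike the states of risers 1 and 43, these levels could differ widely between an animal's regions. At 24 months the animal of cerebellar library KI F3 had 1.88 CPM of riser 6 in cerebellum, 23.1 in cortex and 20.2 in striatum. That of KI M4 had 32.6, 1.26 and 12.7 CPM of riser 41. In other animals the levels were close, as in that of WT F2 at 24 months, with 13.4, 17.7 and 14.1 CPM of riser 6 and 13, 12.1 and 12.7 CPM of riser 41.

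Risers 4 and 5 moved together. Over the 31 cerebellar libraries riser 4 ran from 9.3 to 57.5 CPM and riser 5 from 1.5 to 11.8 CPM, while the ratio of the first to the second stayed between 3.55 and 7.24. Riser 4 had 9.3, 16 and 21.7 CPM in WT and 17.4, 22.5 and 35.6 CPM in KI animals at 19 months. At 24 months it had 23.2, 25.7, 16.5 and 17.2 CPM in the WT libraries and 20.3, 35.1 and 57.5 CPM in KI, with overlap at both ages.

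In the forebrain both genes reached far higher levels in a few libraries. At 24 months KI striatum M4, an outlying library, had 3920 CPM of riser 4 and 848 CPM of riser 5, where the other 6 KI libraries had 42.5 to 250 CPM of riser 4. The cerebellum of that animal had 20.3 CPM, the lowest KI value. WT striatum F2 of that age had 276 and 54.4 CPM. A WT animal of 10 months had 890 and 212 CPM in striatum (M1, outlying) and 270 and 63 CPM in cortex (M2), where the group medians of riser 4 were 8.3 and 5.62 CPM.

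Leaving out each of the 31 cerebellar libraries in turn kept 34 members in the set every time, and 19 members were lost at least once. Of those lost, 13 had a smaller ratio under 1.3, as had 20 of all 53. At the threshold itself, riser 53 had a ratio of 1.22 at 24 months and riser 52 one of 1.223 at 19 months, and the nearest genes outside had 1.219 at 24 and 1.219 at 19 months. Risers 14 and 31 were nearest to the forebrain criterion, both with 0.521 of the higher forebrain mean, and the nearest genes outside had 0.469 and 0.475. Riser 45 was nearest to the level, at 2.05 CPM, and a gene with 1.99 CPM fell outside.

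In each sex taken alone most members had a ratio above 1. At 19 months this held for 52 members among females (median ratio 1.41) and 50 among males (1.33). At 24 months it held for 51 (1.44) and 50 (1.42). It held in all 4 for 46 members, and 26 reached 1.22 in all 4. The members were chosen on these libraries pooled, so these counts describe the choice. The rule used neither the sex by genotype contrast nor that of females with males. Both tests ran on the cerebellar libraries on which the members were chosen, so their values for members are a description. The sex by genotype test (edgeR) called 0 of the 53 members and 0% of 16184 genes. An unadjusted p under 0.05 was seen in 3 members and in 861 of all genes, and DESeq2 called 0 members. The closest was riser 41, with a log2 difference of KI effects, female minus male, of -3.26 ± 0.97 (SE, edgeR adjusted p = 0.822). Female against male in cerebellum also called 0 members (0.0989% of 16184 genes, 0 members by DESeq2). An unadjusted p under 0.05 was seen there in 7 members and in 648 of all genes with edgeR.

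In the forebrain no member was called different between the genotypes with edgeR, although DESeq2 called 3 of them in 2 of the 10 comparisons. KI was compared with WT in each forebrain region and age with edgeR, at an adjusted p under 0.05 over all genes. The 19- and 24-month forebrain libraries came from the same animals as the cerebellum, and the 19-month WT ones entered the forebrain criterion, so only the 2-, 6- and 10-month comparisons use animals outside the rule. In striatum 0 of 48 members were called at 2 months (0% of genes), 0 of 49 at 6 months (0.013%), 0 of 49 at 10 months (0.00644%), 0 of 48 at 19 months (0.0193%) and 0 of 51 at 24 months (0%). In cortex 0 of 50 were called at 10 months (0%), 0 of 49 at 19 months (0%) and 0 of 50 at 24 months (0%). At an unadjusted p under 0.05 there were 7, 3, 3, 6 and 2 members in striatum and 5, 6 and 6 in cortex, in the order of age. Over all genes tested these were 958 of 15407, 1264 of 15377, 908 of 15525, 264 of 15514 and 470 of 15833 in striatum. In cortex they were 1030 of 15422, 805 of 15514 and 784 of 15591. Averaged over 10, 19 and 24 months, 0 of 50 members were called in striatum (0.0492% of genes) and 0 of 50 in cortex (0.00621%). An unadjusted p under 0.05 was seen in 7 and 5 members, and in 1253 of 16248 and 565 of 16108 genes. DESeq2 called risers 3 and 16 in cortex at 24 months (4 of 21107 genes called) and risers 9 and 16 in the striatal average (32 of 22914). In the other 8 comparisons it called 0 members.

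The direction of the members in the forebrain, which was not tested for the list as a whole, was mixed. KI was the higher in 17 of 48 members in striatum at 2 months, 29 of 49 at 6 months and 19 of 49 at 10 months, where 48.8%, 46.7% and 52.4% of all genes were. The count at 6 months was 20 of 49 without WT M2. It was 23 of 49 with a term for each library's slope of log2 level on relative effective length. In cortex at 10 months KI was the higher in 22 of 50 members and 47.2% of all genes. The counts at 19 and 24 months are from the animals that gave the cerebellum, and the 19-month WT forebrain levels entered the rule. They are therefore a description. In striatum KI was the higher in 34 of 48 at 19 months and 36 of 51 at 24 months, where 53.4% and 52.8% of all genes were higher in KI. In cortex it was the higher in 27 of 49 and 30 of 50 at these ages, where 48.9% and 52.3% of all genes were. These counts moved with the scaling: with limma-trend on the deposited TPM-scale table KI was the higher in 25 of 51 members in striatum at 19 months, where 29.3% of all genes were, in 40 of 50 at 24 months (73.6% of all genes) and in 23 of 50 in cortex at 24 months (34.3%). The median log2 KI/WT over the members ran from -0.09 in striatum at 2 months to 0.13 in striatum at 24 months, and the medians over all genes ran from -0.015 to 0.0097. No member tested in all 6 comparisons at 10, 19 and 24 months, of 48, was higher in KI in every one, and none was lower in every one.

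**Figure D4:**
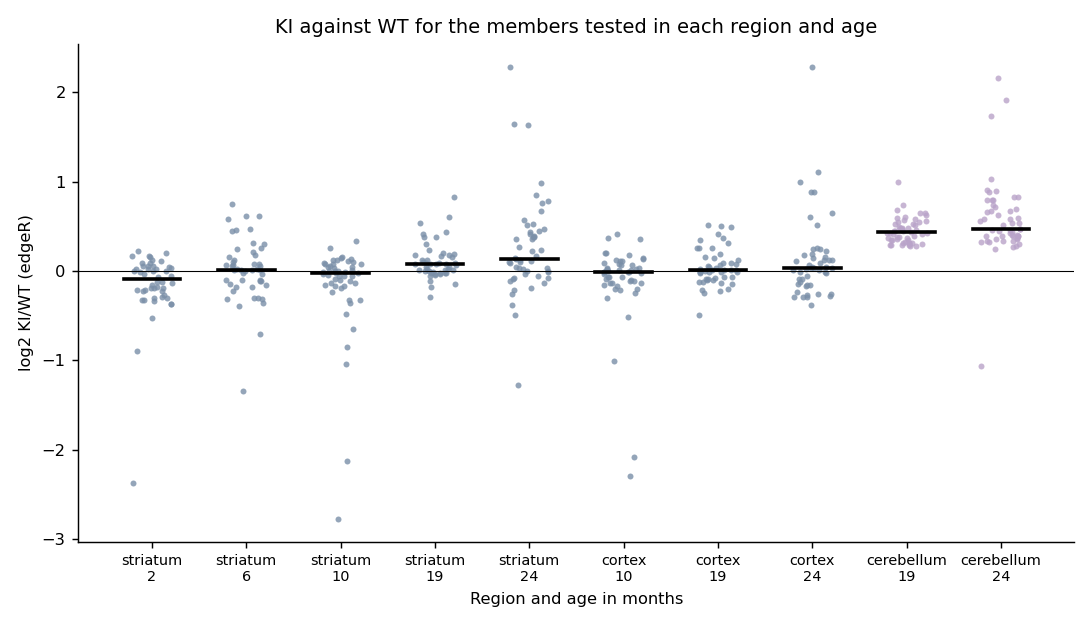
Log2 KI/WT (y) of each member that passed the filter on low counts, by region and age in months (x), with black lines at the median. The members were chosen in cerebellum (purple), by ratios of mean CPM and not by these edgeR values. There 52 of 52 members tested lay above 0 at 19 months, and 52 of 53 at 24 months, with 1 below. In the 8 forebrain columns the medians lie between -0.09 and 0.13.

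Of the members separated in cerebellum at both ages, risers 8, 35, 40 and 48 could be tested in cortex and riser 11 could not. In cortex at 10, 19 and 24 months the log2 KI/WT of riser 8 was 0.06 ± 0.09, 0.07 ± 0.10 and 0.13 ± 0.13 (SE), and that of riser 48 was 0.07 ± 0.05, 0.09 ± 0.07 and -0.09 ± 0.06. Riser 35 had 21.7, 22.8 and 24.8 CPM in WT and 22.1, 24 and 25.9 CPM in KI cortex at 24 months (lowest, median and highest), a log2 KI/WT of 0.06 ± 0.06. In striatum at 6 months its log2 KI/WT was -0.31 ± 0.12, and its edgeR adjusted p of 0.569 there was the smallest of any member in the 8 comparisons at single ages. Riser 40 had 140, 146 and 158 CPM in WT and 139, 152 and 168 CPM in KI cortex at 19 months, a log2 KI/WT of 0.05 ± 0.04. Riser 44, the most abundant member, had 350, 393 and 442 CPM in WT and 374, 406 and 450 CPM in KI cortex at 19 months, a log2 KI/WT of 0.04 ± 0.04. The groups overlapped in these cortical levels of risers 35, 40 and 44. Risers 1, 11, 12, 29 and 45 missed the filter on low counts in at least 1 of the 8 comparisons at single ages. The other 48 members were tested in all 8, and 1 member was tested in none.

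Riser 16 was the member that DESeq2 called in both forebrain regions. In striatum its log2 KI/WT was -0.21 ± 0.09 at 2 months, 0.06 ± 0.14 at 6 months, 0.25 ± 0.18 at 10 months, 0.38 ± 0.13 at 19 months and 0.67 ± 0.22 at 24 months (SE). In cortex it was -0.14 ± 0.08, 0.03 ± 0.09 and 0.52 ± 0.10 at 10, 19 and 24 months. At 24 months WT cortex had 12.8, 12.2, 12.7 and 11.6 CPM and KI cortex 15, 17.1 and 20.6 CPM, with no overlap, and WT striatum had 21.9, 43.7, 27.2 and 25.8 CPM against 42, 46.6 and 74.4 CPM in KI. The edgeR adjusted p was 0.768 in cortex at 24 months and 0.18 for the striatal average, and the DESeq2 adjusted p was 0.0277 and 0.0382. Whether the difference grew with age was not tested.

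Risers 3 and 9 were the other members called by DESeq2, and riser 10 had the smallest unadjusted p of the members in cortex at 19 months. Riser 3 in cortex at 24 months had 2.02, 2.52, 1.72 and 1.81 CPM in WT and 3.1, 3.58 and 5.05 CPM in KI, with no overlap (log2 0.89 ± 0.17, edgeR adjusted p = 0.768, DESeq2 adjusted p = 0.0153). In striatum at that age WT F2, with 17.4 CPM, was above 6 of the 7 KI libraries. Riser 9 in striatum had a log2 KI/WT of 0.03 ± 0.14, 0.60 ± 0.17 and 0.98 ± 0.42 at 10, 19 and 24 months, and of -0.10 ± 0.15, -0.22 ± 0.12 and 0.15 ± 0.19 in cortex. Its edgeR adjusted p for the striatal average was 0.148 and its DESeq2 adjusted p 0.025. Riser 10 in cortex at 19 months had 1.48, 2.14 and 2.73 CPM in WT and 2.21, 2.86 and 3.35 CPM in KI (log2 0.41 ± 0.10, edgeR adjusted p = 0.755).

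Within the forebrain, WT animals of 10 months, which the rule did not use, placed the members on both sides. Cortex and striatum of the same 10 animals differed in 30 of the 50 members tested (71.1% of 16370 genes, edgeR). Of these, 11 were higher in cortex (34.8% of all genes) and 19 higher in striatum (36.4%). The largest differences toward cortex were in riser 52 (log2 cortex/striatum 4.02 ± 0.14, edgeR adjusted p = 1.11e-10) and riser 23 (2.81 ± 0.14, 3.21e-09). The largest toward striatum were in riser 39 (-2.14 ± 0.12, 5.85e-09), riser 30 (-1.82 ± 0.20, 3.81e-06) and riser 18 (-1.75 ± 0.15, 3.09e-07). Riser 44 was higher in cortex (0.69 ± 0.07, 1.35e-06), and risers 1, 43 and 48 did not differ past the threshold.

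**Figure D5:**
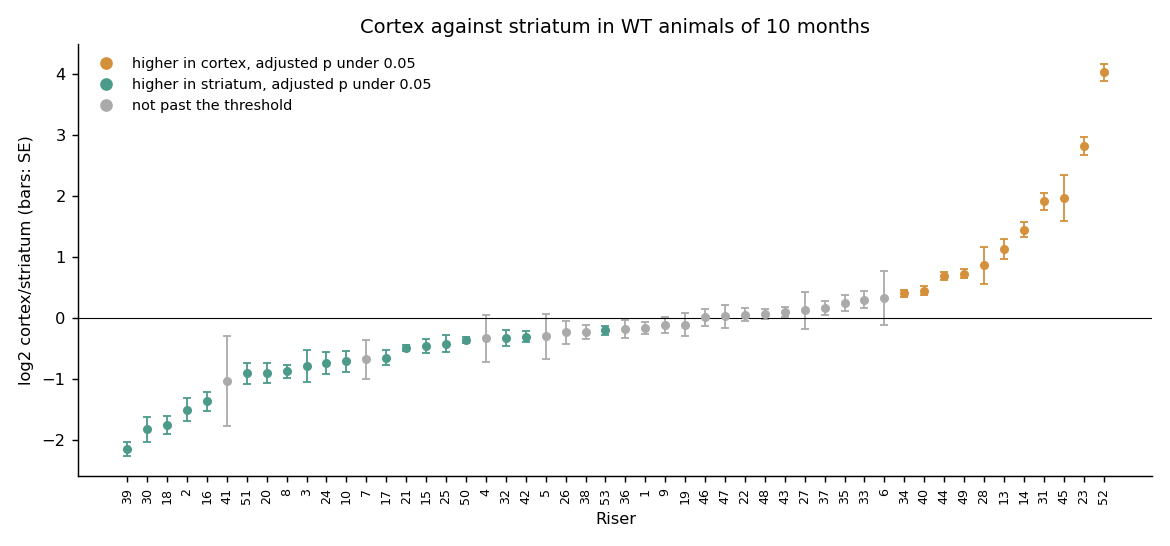
Log2 cortex/striatum (y, bars SE) in WT animals of 10 months for the 50 members that could be tested, in order of the difference (x, riser number). Orange and green mark adjusted p under 0.05 toward cortex (11 members) and striatum (19 members), and riser 52 stands highest at 4.02.

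The median levels of risers 23 and 52 were lowest in striatum and highest in cortex. In WT at 19 months riser 52 had 0.198, 1.38 and 2.26 CPM in striatum, 5.28, 13.9 and 17 CPM in cerebellum and 12.1, 26.9 and 31.3 CPM in cortex. Riser 23 had 1.36, 6.96 and 9.82 CPM in striatum, 9.36, 29.6 and 39.4 CPM in cerebellum and 29.6, 54.2 and 70.4 CPM in cortex. The lowest cerebellar value of both was in the outlying WT library M2.

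Between ages, no member was called in WT forebrain. Comparing 24 with 10 months, 0 of 49 members were called in striatum (0.0255% of 15680 genes) and 0 of 50 in cortex (0.683% of 15530 genes). By DESeq2 0 were called in both. With edgeR 6 and 8 members had an unadjusted p under 0.05, as had 924 of the 15680 genes in striatum and 2669 of the 15530 in cortex.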

How the data were processed

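The authors deposited a table of estimated counts (8.12% of cells not whole, rounded here) and a table labelled FPKM whose libraries each sum to 1000000, treated as deposited TPM. Per the file headers the genome build is Rat.B6.0; how reads were aligned and counted is not given in the sources used here. The members, lists and tests were chosen with earlier results of these data known. CPM used column totals. Tests used edgeR 4.0.16 in R 4.3.3 (TMM, filterByExpr, robust quasi-likelihood, sex as covariate where both sexes were present, animal as block between regions), with Benjamini-Hochberg adjustment over all genes. A design written for whole counts was applied to estimated counts. Alternatives were DESeq2 1.42.0, limma-trend 3.58.1 on log2(TPM + 1), RLE factors, other filters and left-out libraries. A further alternative took as covariate each library's slope of log2 level on relative effective length. A library was outlying where its mean Spearman correlation lay over 5 scaled median absolute deviations below its group's median. Fits were tested on simulated data. The rule for named genes allowed 2 identifiers without symbols, those of the largest smaller ratio and the highest WT cerebellar CPM; other risers described were chosen after their values were seen. Gene lists and cell type markers could not be used without symbols. The p-values weigh a difference against the spread between animals. Between cortex and striatum, with animal as a block, they weigh it against the spread left within animals.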

Additional observations from a re-analysis of the deposited data

Results flagged for a closer look

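Each member's cerebellar groups were searched for a library far from the others (a gap to the nearest library above Dixon's 95% value), which chance finds in about 1 in 20 groups. It found 25 libraries in 212 groups. The members were chosen on these same values and share libraries, so this count is a description and is not read against chance. KI F5 and WT M2 at 19 months, the outlying cerebellar libraries, held 5 each. For KI F5 these were riser 1 at 97.4 CPM, riser 2 at 12 CPM, riser 20 at 11.5 CPM (its lowest), riser 28 at 8.8 CPM and riser 52 at 9.18 CPM (its lowest). For WT M2 they were riser 26 at 3.78 CPM, riser 27 at 7.55 CPM and riser 34 at 134 CPM, all the highest of their group, and riser 33 at 6.81 CPM and riser 52 at 5.28 CPM, the lowest.

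KI F1 at 24 months stood apart in riser 19 at 131 CPM, riser 27 at 243 CPM and riser 28 at 9.98 CPM. Other KI libraries that stood apart at 19 months were M5 in riser 27 at 12.1 CPM, F1 in riser 18 at 7.87 CPM and M1 in riser 42 at 24.6 CPM, the lowest of its group. At 24 months they were F3 in riser 32 at 31.9 CPM, again the lowest, and M3 in riser 45 at 7.64 CPM. Among WT libraries, M5 at 19 months stood apart in riser 1 at 35.3 CPM. At 24 months F1 did so in riser 1 at 37.7 CPM, F2 in riser 6 at 13.4 CPM and in riser 23 at 20.1 CPM (the lowest), M1 in riser 8 at 7.72 CPM and in riser 43 at 0.0631 CPM (the lowest), and M2 in riser 17 at 6.97 CPM.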

How the results depend on the processing

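The rule gave 53 genes as written. It gave 365 with a fold of 1.1, 33 with a fold of 1.3, 18 when the cerebellum had to be at least equal to both forebrain regions, and 88 in males alone; each change of threshold or of libraries changes the rule itself. TMM factors gave 38, all among the 53, the TPM values 53 (43 shared), medians 64 (41 shared) and females alone 71 (35 shared). Leaving out 1 cerebellar library, at 19 months an alternative chosen after seeing the data, gave 50 to 64 genes. Members separated at 19 months numbered 11 without the outlying libraries, against 6, and 4 to 9 otherwise. At 24 months they numbered 24 to 30. The shares of all genes under these settings are not given here, so nothing is read from the changes. With edgeR no forebrain comparison of KI with WT called a member, except in striatum at 2 months. There the counts on leaving out 1 library ran from 0 to 1. Riser 6 was called without KI M3 (36 of 15599 genes called) and riser 41 without WT M2 (1 of 15582). Both were lower in KI. DESeq2 called 2 members in cortex at 24 months (4 of 21107 genes) and 2 in the striatal average (32 of 22914). For that average limma-trend on the TPM table called 1 member, riser 16 (6 of 17412 genes). The cause was not tested. The replicate block called 0 members in all 8 comparisons; same-numbered KI and WT libraries deviated together (correlation over 0.1) in 29 of 54 pairs, 13 of 54 KI libraries were closest to the WT library of their own number, and the labels do not pair them. WT cortex against striatum called 28 to 32 members. Dropping the 19 members lost on leaving out at least 1 cerebellar library, a setting added later, could only leave 0 edgeR calls. There were 0 with all members in, so it decides nothing. Members with under about 1 CPM in forebrain were mostly not testable there at this depth.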
